A study of Saccharomyces cerevisiae with 9 samples.

Results

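RNA polymerase I, the enzyme that transcribes the ribosomal RNA genes, was followed through the messages of 8 genes: the 7 subunits found in no other yeast polymerase (RPA190, RPA135, RPA49, RPA43, RPA34, RPA14 and RPA12) and the initiation factor RRN3. They were taken by gene symbol and not by a cut on any measured value, although earlier results of these data were known. All 8 were among the 7122 gene rows of the table and among the 6150 genes that passed the filter on low counts. The data were RNA-seq counts from budding yeast of the CEN.P.K prototrophic strain in log phase in minimal synthetic medium with 2% glucose. The 3 genotypes, with 3 libraries each, were wild type (WT), a knockout of PAH1 (pah1Δ) and a knockout of DGK1 (dgk1Δ). All 9 libraries shared strain, medium and growth phase. The product of PAH1 is a phosphatidate phosphatase, which forms diacylglycerol, and Dgk1 is a kinase that runs this step backwards. The comparisons ask how gene expression differs when either enzyme is missing under ordinary growth.

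RNA polymerase I works in the nucleolus on the tandem ribosomal DNA repeats and makes the long precursor of the large ribosomal RNAs. In growing yeast it carries a large share of all transcription, and its activity sets the pace of ribosome production. Rpa190 and Rpa135 form the active centre, Rpa49 and Rpa34 form a dimer that acts in initiation and elongation, Rpa43 and Rpa14 form the stalk, and Rpa12 serves RNA cleavage and termination. Rrn3 binds the stalk subunit Rpa43 and brings the polymerase to the promoter. In yeast many ribosome biogenesis genes carry a pair of short promoter elements, PAC, the site of the repressors Tod6 and Dot6, and RRPE, the site of Stb3.

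The promoter stretches that hold these elements are shown because the members differ in them. The letters searched were GATGAG for PAC, AAAAATTT for RRPE and TTACCCG for the site of Reb1, a general regulatory factor. Both strands of the 250 bases before each coding start were read, from the NCBI RefSeq reference of build R64. That reference is strain S288C, so the CEN.P.K sequence may differ. Capitals mark PAC and RRPE matches on either strand (CTCATC and AAATTTTT on the opposite one), and each stretch is written 5′ to 3′ on the strand of its gene. In RPA12 no element matched, and the stretch shown runs from 200 to 101 bases before the start.
RPA190, chrXV:960749-960840, plus strand: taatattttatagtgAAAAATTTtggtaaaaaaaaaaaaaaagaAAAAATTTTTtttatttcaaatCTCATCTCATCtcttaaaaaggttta
RPA135, chrXVI:581280-581347, minus strand: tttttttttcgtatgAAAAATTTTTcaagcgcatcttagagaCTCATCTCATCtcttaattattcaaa
RPA49, chrXIV:182718-182767, minus strand: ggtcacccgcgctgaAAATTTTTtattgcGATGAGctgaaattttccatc
RPA43, chrXV:960315-960379, minus strand: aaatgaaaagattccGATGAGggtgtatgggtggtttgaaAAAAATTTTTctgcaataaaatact
RPA34, chrX:140200-140347, plus strand: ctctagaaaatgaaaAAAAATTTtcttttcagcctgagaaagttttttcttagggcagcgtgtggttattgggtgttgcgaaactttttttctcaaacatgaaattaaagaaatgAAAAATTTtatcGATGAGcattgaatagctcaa
RPA14, chrIV:769386-769486, plus strand: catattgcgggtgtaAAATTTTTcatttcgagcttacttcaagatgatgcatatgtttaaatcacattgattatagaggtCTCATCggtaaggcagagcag
RRN3, chrXI:208058-208093, plus strand: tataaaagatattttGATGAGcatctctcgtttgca
RPA12, chrX:554995-555094, plus strand: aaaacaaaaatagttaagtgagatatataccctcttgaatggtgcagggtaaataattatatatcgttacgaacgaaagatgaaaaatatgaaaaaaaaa

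PAC was matched in 7 of the 8 member promoters (87.5%), against 17.0% of the 6001 protein-coding promoters of the reference. RRPE was matched in 6 of 8 (75.0%), against 13.4%. Both elements stood in 6 of 8, all but RPA12 and RRN3, against 4.98% of all promoters. RRN3 held PAC alone. In RPA190 and RPA135, 2 PAC matches overlapped each other, and in these genes and RPA43 an RRPE match on each strand overlapped the other. The bases between the nearest PAC and RRPE numbered 4 in RPA34, 6 in RPA49, 12 in RPA190, 17 in RPA135, 19 in RPA43 and 57 in RPA14. RPA43 was the member with PAC farther from the start than RRPE. The Reb1 site was matched in RPA14 alone of the 8, at 2 places, against 7.03% of all promoters. A match is a run of letters in the window and not a measured binding site.

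The genes lie on 6 chromosomes. RPA190 (YOR341W, chromosome XV, 960987 to 965981, plus strand, 4995 bases) and RPA43 (YOR340C, chromosome XV, 959202 to 960182, minus strand, 981 bases) are divergent neighbours whose starts are separated by 804 bases. RPA135 (YPR010C) spans 577585 to 581196 on the minus strand of chromosome XVI, 3612 bases. RPA49 (YNL248C) spans 181361 to 182608 on the minus strand of chromosome XIV, 1248 bases. Chromosome X carries RPA34 (YJL148W, 140437 to 141138, plus strand, 702 bases) and RPA12 (YJR063W, 555195 to 555572, plus strand, 378 bases). RRN3 (YKL125W) spans 208247 to 210130 on the plus strand of chromosome XI, 1884 bases. RPA14 (YDR156W) spans 769525 to 769938 on the plus strand of chromosome IV, 414 bases. Its last 8 bases overlap YDR157W on the same strand, which had 2 to 8 counts in a library. In dgk1Δ, 84 of the 101 genes that rose lie on chromosomes III and IX, and no member lies there.

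Total counts per library ran from 9205454 to 12795803. PAH1 had 454 to 535 counts in WT and 0 in every pah1Δ library, and DGK1 had 1030 to 1502 counts in WT and 1 to 2 in dgk1Δ, so both deletions matched their labels. The libraries differed in how counts depended on gene length. For each library, a gene's log2 deviation from the mean of the other libraries of its group was set against gene length. The Spearman correlation across 5304 genes ran from -0.745 in WT replicate 1 to 0.692 in WT replicate 2. It was 0.605 in WT replicate 3, and 0.330, -0.681 and 0.639 in pah1Δ replicates 1 to 3. In dgk1Δ replicates 1 to 3 it was -0.138, 0.536 and -0.428. Genes are not independent replicates, and this value describes each library. The results below are also given without WT replicate 1 and pah1Δ replicate 2, which had the most negative values. That choice was made after seeing the data, and the libraries kept were not free of such trends.

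Per length, the subunit messages were well above the typical gene and RRN3 was below it. The values are FPKM, the authors' fragments scaled by gene length and library total. The mean WT level was 274 ± 13.2 FPKM for RPA34, 260.4 ± 18.7 for RPA49 and 254 ± 38.7 for RPA12 (SD, n = 3 for each level in this paragraph). RPA135 followed at 194 ± 28.4 FPKM, RPA43 at 159 ± 9.37, RPA14 at 127 ± 19.4 and RPA190 at 114 ± 18.3. RRN3 stood at 30.9 ± 1.63 FPKM. The median gene had 44.5 FPKM, and the 7 subunits lay between percentiles 75.8 and 89.4 of the 6150 genes, and RRN3 at percentile 37.2. The WT libraries of RPA34 and RPA49 overlapped, as did those of RPA49 and RPA12, of RPA135 and RPA43, and of RPA14 and RPA190. RPA12 and RPA135, RPA43 and RPA14, and RPA190 and RRN3 did not overlap.

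In pah1Δ the FPKM order was RPA34 (228 ± 27.6), RPA49 (206 ± 9.41), RPA12 (189.9 ± 19.6), RPA135 (145 ± 15.9), RPA14 (131 ± 10.03), RPA43 (129 ± 6.41), RPA190 (86.2 ± 5.25) and RRN3 (32.9 ± 0.699). RPA14 and RPA43, the stalk genes, had changed places, but their libraries overlapped in this genotype. In dgk1Δ the FPKM order was that of WT, from RPA34 at 257 ± 14.0 to RRN3 at 30.0 ± 0.890, and RPA34 and RPA49 were the single pair of neighbours that overlapped.

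**Figure D1:**
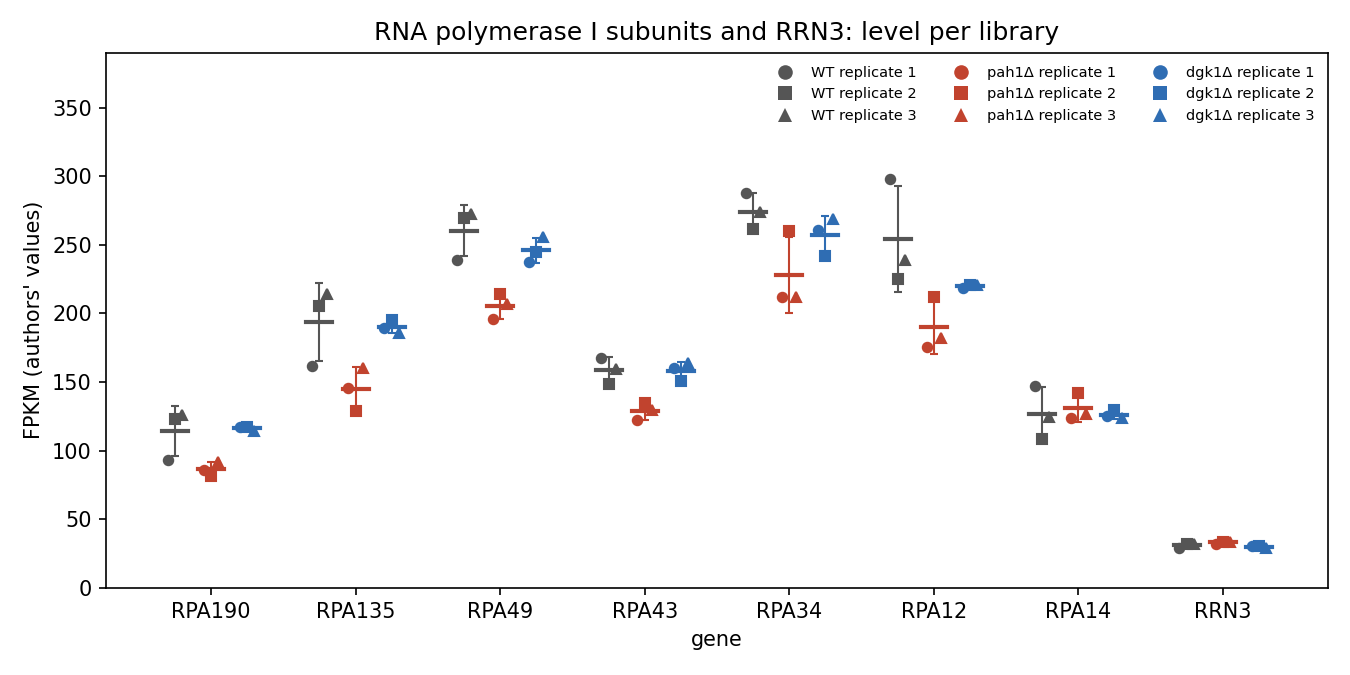
Level of each gene in FPKM (vertical axis) in every library, with the group mean (bar) and SD (whisker) of 3 libraries. The pah1Δ points lie lowest for RPA190, RPA135, RPA49, RPA43 and RPA12, while RRN3 stays near 30.9 FPKM in WT and 32.9 in pah1Δ.

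Without PAH1, messages of 6 of the 8 genes fell and none rose. RPA12, RPA135, RPA190, RPA49, RPA43 and RPA34 fell. By the estimates RPA34 fell least and RPA12 most, but their intervals overlapped (-0.58 to -0.14 and -0.81 to -0.23 in log2). Differences between members were not tested. RPA34 fell by 22.0% and RPA12 fell by 30.2%, while RPA14 and RRN3 did not pass the test. The call was an adjusted p under 0.05 by edgeR's quasi-likelihood test over all 6150 genes, of which 12.6% were called lower and 16.6% higher in pah1Δ than in WT. The median log2 fold change was -0.41 over the 8 genes and 0.00058 over all genes tested. DESeq2 and limma-voom each called 6 lower and 0 higher as well, 0 were higher at an unadjusted p under 0.05, and the same count was lower with WT replicate 1 and pah1Δ replicate 2 both left out, with log2 fold changes from -0.54 (RPA190) to -0.34 (RPA43). Counts were scaled within each library, so a fall is a lower level relative to the other messages, and RNA amounts per cell were not measured. RNA was extracted from whole cultures, so a lower relative level in every cell and a changed mix of cells cannot be told apart. Values per library are given below in CPM, counts scaled by library total and TMM factor, which compare 1 gene between libraries.

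The 2 large subunits of the active centre fell by similar amounts. RPA190 had 499.6, 614 and 636 CPM in the WT libraries (583 ± 73.1, mean ± SD, n = 3) and 408, 392 and 448 in pah1Δ (416 ± 29.0, n = 3). RPA135 had 627, 741 and 783 CPM in WT (717 ± 80.7) and 502, 447 and 566 in pah1Δ (505 ± 59.2). In both genes WT replicate 1 was the lowest of its group, and it still lay above every pah1Δ library. The log2 fold change was -0.49 ± 0.0961 (SE, edgeR adjusted p = 0.00358) for RPA190 and -0.50 ± 0.105 (adjusted p = 0.00471) for RPA135. These are the longest members, and with the length trend removed from the counts the log2 fold changes were -0.40 and -0.47.

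Of the dimer of Rpa49 and Rpa34, RPA49 showed the tighter libraries. RPA49 had 320.3, 336 and 343 CPM in WT (333 ± 11.7) and 233, 258 and 252 in pah1Δ (248 ± 12.8), with a wide gap between the groups. Its log2 fold change was -0.43 ± 0.0689 (edgeR adjusted p = 0.00107). RPA34 had 217, 183 and 194 CPM in WT (198 ± 17.4) and 142, 176 and 145 in pah1Δ (155 ± 18.6). Here pah1Δ replicate 2 came close to the lowest WT library, although the groups did not overlap. The log2 fold change of RPA34 was -0.36 ± 0.0998 (edgeR adjusted p = 0.0202). This call was the least firm of the 6: the adjusted p was 0.0916 without pah1Δ replicate 1, 0.0714 without pah1Δ replicate 3 and 0.0521 with scaling by library size only.

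The stalk genes RPA43 and RPA14 differed in outcome. RPA43 had 177, 146 and 158 CPM in WT (160.0 ± 15.6) and 115, 128 and 124 in pah1Δ (122 ± 6.74), with every pah1Δ library below every WT library. Its log2 fold change was -0.39 ± 0.0869 (edgeR adjusted p = 0.00666). RPA14 had 65.5, 44.8 and 51.9 CPM in WT (54.1 ± 10.5) and 48.9, 56.8 and 51.3 in pah1Δ (52.3 ± 4.06). All 3 pah1Δ libraries lay inside the WT range, which WT replicate 1 alone widened upwards. The log2 fold change of RPA14 was -0.05, with a 95% interval from -0.33 to 0.23 (edgeR adjusted p = 0.794). Without WT replicate 1 it was 0.11. The log2 fold changes of the 6 genes that fell all lay below this interval.

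RPA12, the smallest subunit by gene length, had 121, 84.9 and 91.3 CPM in WT (99.1 ± 19.3) and 63.3, 77.3 and 67.2 in pah1Δ (69.3 ± 7.21). WT replicate 1 was far above the other WT libraries, but all 3 WT libraries exceeded the pah1Δ ones. The log2 fold change was -0.52 ± 0.129 (edgeR adjusted p = 0.012), which is both the largest fall and the largest standard error among the 8. It was -0.35 without WT replicate 1, and its adjusted p was 0.0599 without pah1Δ replicate 1.

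RRN3, the initiation factor that links polymerase and promoter, had 58.8, 60.3 and 59.9 CPM in WT (59.7 ± 0.798) and 57.8, 60.2 and 61.5 in pah1Δ (59.9 ± 1.89). The groups overlapped fully, and relative to their level the WT and the pah1Δ libraries lay closer together than those of any other member. The log2 fold change was 0.0045, with a 95% interval from -0.15 to 0.16 (edgeR adjusted p = 0.972). The intervals of RPA49, RPA43, RPA135, RPA190 and RPA12 ended at -0.28, -0.20, -0.27, -0.27 and -0.23, all below the lower end of the interval of RRN3. The upper end of the RPA34 interval, -0.14, did not lie below it.

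**Figure D2:**
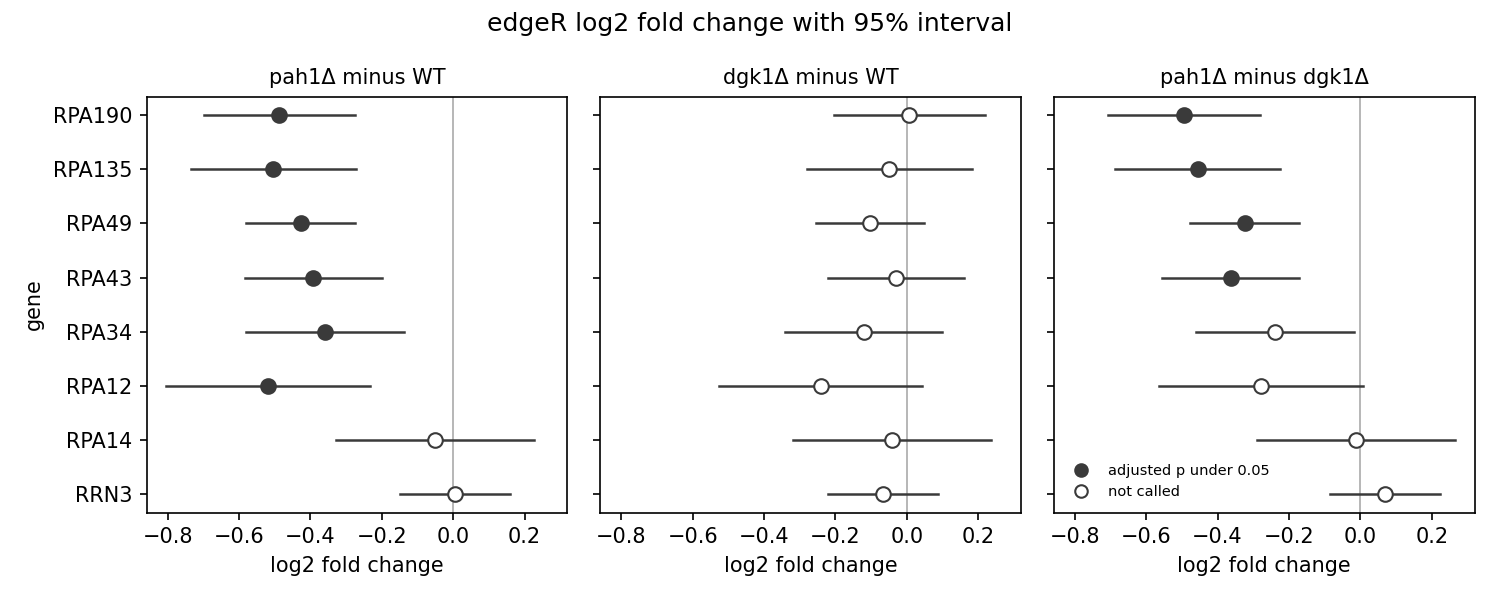
Log2 fold change (horizontal axis) of each gene in the 3 comparisons, with 95% intervals from edgeR's fit; filled points passed an adjusted p under 0.05. In pah1Δ against WT 6 points lie between -0.52 and -0.36, and RPA14 and RRN3 lie near 0.

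RRN3 served as a within-library yardstick, since a ratio of FPKM inside a library does not depend on its scaling. RPA49 to RRN3 was 8.23, 8.41 and 8.65 in WT, 6.09, 6.46 and 6.18 in pah1Δ and 7.81, 8.01 and 8.84 in dgk1Δ. For each of the 6 genes that fell, the ratio to RRN3 was lower in every pah1Δ library than in every WT library, by 0.37 to 0.51 in log2. Of the 6149 genes tested other than RRN3, 17.5% had a ratio to RRN3 below every WT library in pah1Δ and 20.9% above. The 6 were taken because they had been called, so the ratio gives the same falls on another scale and adds no separate test. In none of these 6 ratios were dgk1Δ and WT apart, where 2.49% of the 6149 genes lay below and 16.5% above every WT library. RRN3 itself was lower in every dgk1Δ library (55.7 to 57.7 CPM) than in every WT library (58.8 to 60.3), though not called. A lower RRN3 raises every ratio to it, so these ratios could miss small falls in dgk1Δ. The use of ratios to RRN3 was chosen after the values were seen, and 3 against 3 libraries cannot go below p = 0.1 in an exact two-sided permutation test.

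Among the 6 genes that fell, 1 of the 15 pairwise FPKM ratios separated pah1Δ from WT and 3 separated dgk1Δ from WT. Over all 28 member pairs 10 separated pah1Δ and 4 separated dgk1Δ from WT. Of these 10, 6 were the ratios to RRN3 of the genes that fell. The share over all gene pairs was not computed, so these counts only describe the members. RPA135 to RPA190 had the smallest spread of these 28, at 1.73, 1.67 and 1.70 in WT, 1.70, 1.58 and 1.75 in pah1Δ and 1.62, 1.67 and 1.63 in dgk1Δ, a log2 SD of 0.0486 over 9 libraries. Its pah1Δ libraries overlapped WT, and its dgk1Δ libraries all lay below WT, the highest at 1.665 against a lowest WT value of 1.669. The FPKM ratio of RPA12 to RPA14, genes of nearly the same length, was 2.03, 2.07 and 1.93 in WT. It was 1.42, 1.49 and 1.44 in pah1Δ and 1.74, 1.71 and 1.79 in dgk1Δ. No library of any genotype overlapped another genotype in this ratio, and dgk1Δ stood between the others.

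**Figure D3:**
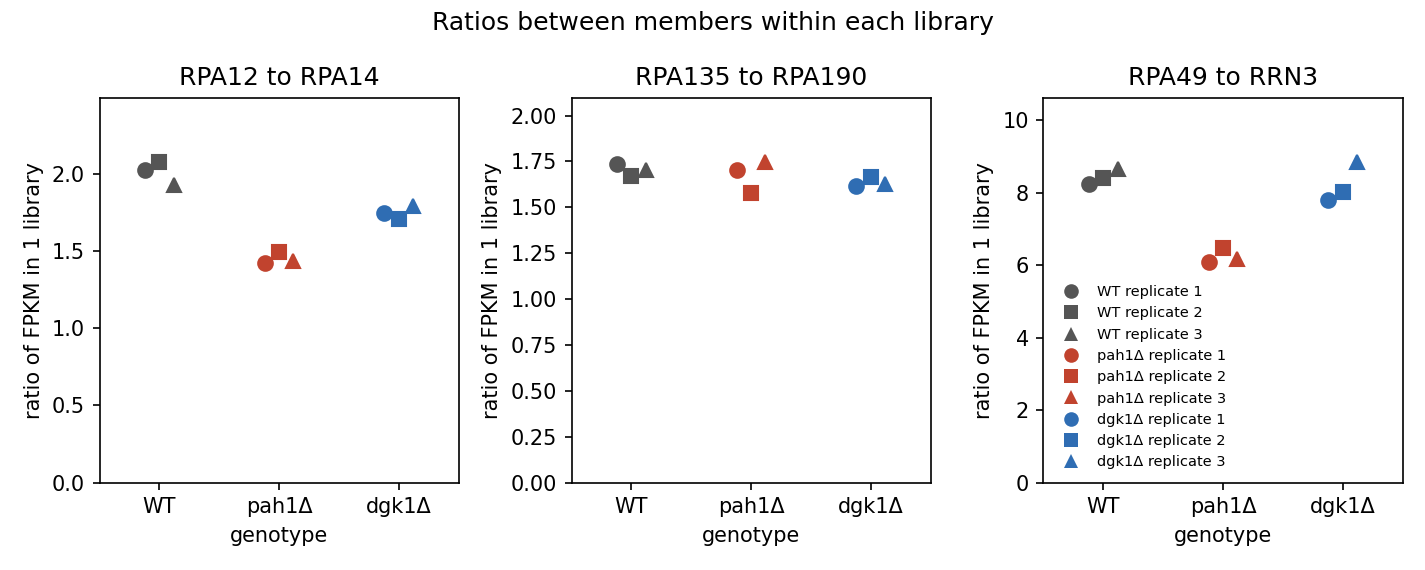
Ratios of FPKM inside each library (vertical axes) for 3 pairs of members, by genotype. RPA49 to RRN3 and RPA12 to RPA14 are lowest in pah1Δ (6.09 to 6.46 and 1.42 to 1.49). For RPA135 to RPA190 pah1Δ overlaps WT, and dgk1Δ lies just below it.

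Without DGK1, no member passed the test. edgeR called 0 of 8 lower and 0 of 8 higher in dgk1Δ than in WT, against 0.276% and 1.64% of all genes, 0 had an unadjusted p under 0.05, and DESeq2 and limma-voom called 0. The median log2 fold change was -0.06 over the 8 genes and 0.0053 over all genes. RPA190 had 587, 586 and 583 CPM in dgk1Δ (586 ± 2.08), inside the WT range, and its log2 fold change was 0.01 with a 95% interval from -0.20 to 0.22 (edgeR adjusted p = 0.997). RPA135 had 687, 706 and 685 CPM, also inside the WT range. RPA12 had 83.0, 83.6 and 85.2 CPM (83.9 ± 1.15), below 2 of the 3 WT libraries and overlapping the third.

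The RPA12 log2 fold change in dgk1Δ was -0.24 with an interval from -0.53 to 0.04, the lowest of the 8 (edgeR adjusted p = 0.659). It was -0.07 without WT replicate 1. RRN3 was at 57.6, 57.7 and 55.7 CPM in dgk1Δ, below every WT library, yet its log2 fold change was -0.07 with an interval from -0.22 to 0.09 (edgeR adjusted p = 0.889). The other 5 members had log2 fold changes from -0.12 to -0.03. Their intervals together ran from -0.34 to 0.24. For RPA190, RPA135, RPA49, RPA43 and RPA34 the log2 fold change estimated in pah1Δ lay below the dgk1Δ interval, and for RPA12 it lay inside. This leaves out the error of the pah1Δ estimate and the WT libraries that both comparisons share, so it is no test between the mutants.

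Set directly against dgk1Δ, pah1Δ had lower messages for 4 of 8 members and higher for none, where 10.8% of all genes were lower and 14.2% higher. DESeq2 and limma-voom also called 4 lower and 0 higher, and 5 were lower and 0 higher at an unadjusted p under 0.05 by edgeR. This comparison shares its pah1Δ libraries with the one above. The log2 fold changes were -0.49 ± 0.0961 for RPA190 (SE, edgeR adjusted p = 0.00366), -0.46 ± 0.105 for RPA135 (0.00908), -0.32 ± 0.0689 for RPA49 (0.00595) and -0.36 ± 0.0869 for RPA43 (0.0114). RPA49 had 298, 306 and 326 CPM in dgk1Δ and RPA43 had 158, 148 and 164, in both genes above every pah1Δ library. The call of RPA43 was lost without pah1Δ replicate 1 (adjusted p = 0.0593) and without dgk1Δ replicate 3 (adjusted p = 0.0652).

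RPA12 and RPA34 did not pass against dgk1Δ. RPA12 had a log2 fold change of -0.28 with an interval from -0.56 to 0.01 (edgeR adjusted p = 0.149), although its pah1Δ libraries all lay below the dgk1Δ ones. RPA34 had 184, 170.2 and 193 CPM in dgk1Δ, so that pah1Δ replicate 2 with 176 overlapped them, and a log2 fold change of -0.24 (adjusted p = 0.111). Both passed without WT replicate 1 and with WT replicate 1 and pah1Δ replicate 2 both left out, which made 6 of 8. RPA14 and RRN3 had log2 fold changes of -0.01 and 0.07 and did not pass.

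The remaining parts of the polymerase and its partners were read from the same fit, with pah1Δ against WT first. The enzyme also holds 2 subunits shared with RNA polymerase III, and both fell: RPC40 by 0.28 (edgeR adjusted p = 0.0202) and RPC19 by 0.33 (adjusted p = 0.0339) on the log2 scale. Of the 5 subunits shared by all 3 polymerases, RPO26 was called (log2 fold change -0.43, adjusted p = 0.0466), and RPB5 (-0.36, adjusted p = 0.0551) and RPB8 (-0.35, adjusted p = 0.0708) were not. The count of this list was 3 by DESeq2, 3 without WT replicate 2 and 0 without WT replicate 1. The core factor, which binds the ribosomal DNA promoter with Rrn3 and the polymerase, had 2 of 3 genes called lower, RRN11 (-0.36, adjusted p = 0.0143) and RRN6 (-0.34, adjusted p = 0.0474). The calls of RPC19, RPO26 and RRN6 were lost in 11, 14 and 16 of 22 alternative settings. Both genes shared with RNA polymerase III lost their calls without pah1Δ replicate 1 or without pah1Δ replicate 3, and both core factor genes without WT replicate 3.

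The upstream activating factor, which binds further upstream of the same promoter, had 0 of 4 genes called, with a median log2 fold change of -0.04. For this list edgeR gave 0 genes at an unadjusted p under 0.05, and DESeq2 and limma-voom called 0. SPT15, the gene of TBP, was not called (-0.24). Among 10 ribosomal DNA chromatin and termination genes, HMO1, a high-mobility-group protein of active ribosomal DNA, fell (-0.38, edgeR adjusted p = 0.014), as did SIR2, the deacetylase that silences these repeats (-0.25, adjusted p = 0.0319). The call of SIR2 was lost in 13 of 22 alternatives, and the list went from 2 to 8 lower without WT replicate 1. Of 8 elongation factor genes, LEO1, a subunit of the Paf1 complex, was called lower (-0.24, adjusted p = 0.0177), though not without pah1Δ replicate 1, and 1 of 8 is near the 12.6% of all genes. That list had 6 lower with WT replicate 1 and pah1Δ replicate 2 both left out.

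The t-UTP genes, whose proteins join the nascent ribosomal RNA precursor and start its processing, all fell. All 7 of 7 were called lower, with a median log2 fold change of -0.41, and all 7 were called under each of the 22 alternatives. UTP8 (-0.44, edgeR adjusted p = 0.000638), UTP4 (-0.49, adjusted p = 0.00126), UTP10 (-0.41, adjusted p = 0.00206) and UTP5 (-0.40, adjusted p = 0.00211) had the smallest p. Against dgk1Δ, 6 of the 7 were lower in pah1Δ, and of these 6 only 3 kept the call without pah1Δ replicate 1, and 3 without dgk1Δ replicate 1.

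Genes of the other polymerases were read against the 12.6% of all genes called lower. Of 10 subunits specific to RNA polymerase III, 4 were called lower (median log2 fold change -0.25), with RPC82 at -0.29 (edgeR adjusted p = 0.0151) and RPC31 at -0.35 (adjusted p = 0.025). That count was 0 without WT replicate 3 or without pah1Δ replicate 1. Of 7 specific to RNA polymerase II, RPB7 was called lower (-0.35, adjusted p = 0.00861), a share near that of all genes, and the median was -0.20. The RNA polymerase III factors TFIIIB and TFIIIC and the repressor MAF1 had 0 of 9 called, a median of 0.01, 0 genes at an unadjusted p under 0.05, and 0 calls by DESeq2 or limma-voom. With the length trend removed the RNA polymerase II count was 5. The difference between these lists and the members was not tested.

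Among 10 regulators of ribosome biogenesis genes, RAP1, the activator of ribosomal protein genes, fell (-0.58, edgeR adjusted p = 0.000788). TOD6, a repressor that binds PAC, also fell (-0.29, adjusted p = 0.0331), a call lost in 12 of 22 alternatives. The repressors DOT6 (0.09, edgeR adjusted p = 0.708) and STB3 (0.37, adjusted p = 0.173) had estimates above 0 and were not called. CRF1, a corepressor of ribosomal protein genes, rose by 0.58 (adjusted p = 0.00492). SCH9, a kinase of the TORC1 pathway, had -0.34 (adjusted p = 0.0593) and ABF1, a general regulatory factor, had -0.43 (adjusted p = 0.0618). This list had 2 of 10 called lower and 1 of 10 higher, beside 12.6% and 16.6% of all genes. The lower genes numbered 6 without WT replicate 1. In pah1Δ against dgk1Δ edgeR called 2 elongation genes and 1 RNA polymerase II gene lower, with RAP1 lower and CRF1 higher. Beside the t-UTP genes it called 0 in the other 8 lists, both groups of shared subunits, the core factor, the chromatin genes and the RNA polymerase III subunits among them. In these 8 lists an unadjusted p under 0.05 gave 1 lower gene shared with RNA polymerase III, 1 chromatin gene and 3 RNA polymerase III genes, DESeq2 called 1 lower in each of these 3 lists, and limma-voom called 0.

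In dgk1Δ against WT edgeR called no gene of these 12 lists. At an unadjusted p under 0.05 it gave 1 lower in each of the chromatin and the elongation lists, 2 lower t-UTP genes and 1 higher RNA polymerase II gene, and DESeq2 called 1 elongation gene lower. The chromatin gene was HMO1 (-0.31, edgeR adjusted p = 0.252) and the elongation gene LEO1 (-0.23, adjusted p = 0.181). Both estimates were close to those in pah1Δ. In pah1Δ against dgk1Δ HMO1 had -0.07 and LEO1 -0.01, and neither was called.

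**Figure D4:**
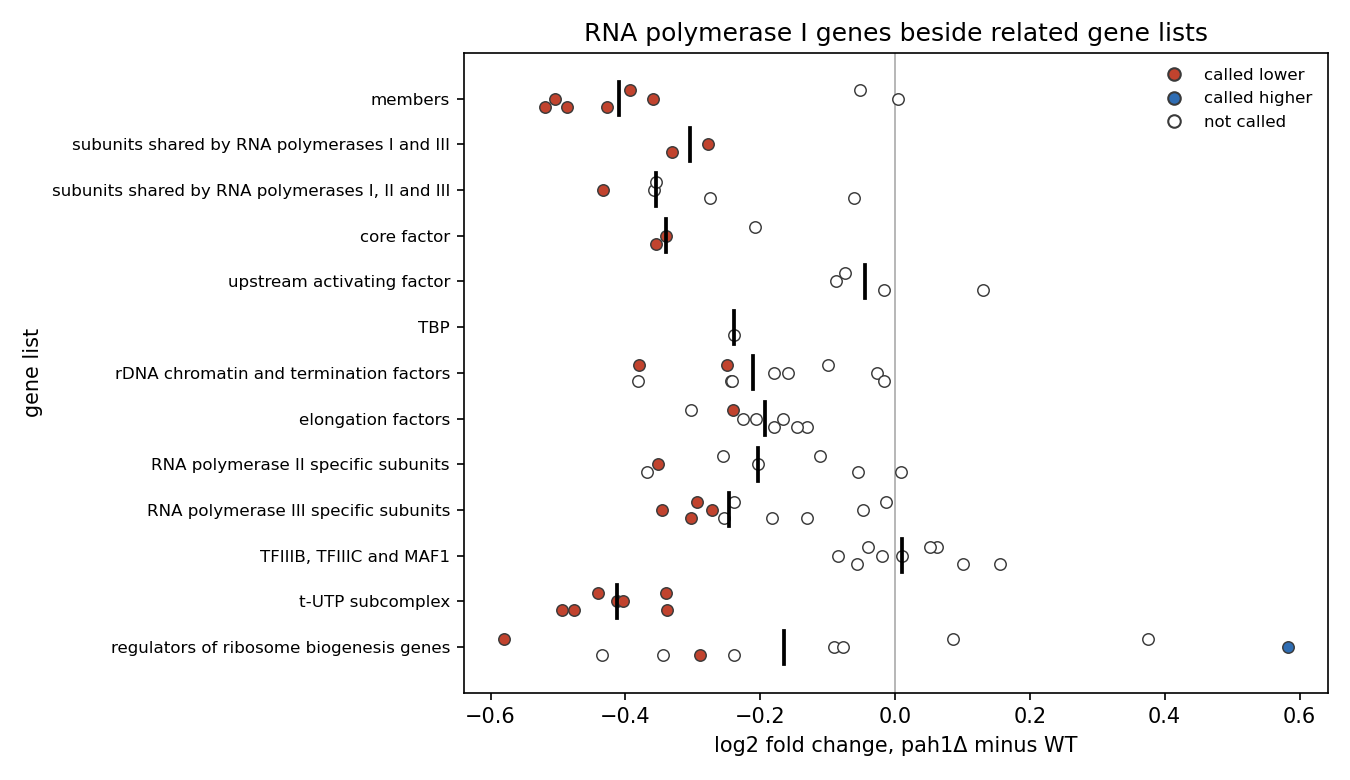
Log2 fold change in pah1Δ against WT (horizontal axis) of every gene of the members and of 12 related lists (rows), filled where called by edgeR, with a bar at each list's median. The members and the t-UTP genes have a median of -0.41, the upstream activating factor -0.04 and the TFIIIB, TFIIIC and MAF1 list 0.01.

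The promoter letters shown above were set beside the falls in pah1Δ, as a description chosen after the values were seen. Only tested genes with a protein-coding promoter in the reference were counted, which is fewer than the 6150 tested. Of 296 tested genes with PAC and RRPE, 174 (58.8%) were called lower and 7 (2.36%) higher, with a median log2 fold change of -0.31. With RRPE alone 22.1% of 498 genes were lower, with PAC alone 14.2% of 643, and with neither 8.91% of 4242. Genes with both elements 0 to 20 bases apart were lower in 120 of 185 cases (64.9%), those 21 to 60 apart in 48 of 88 (54.5%) and those farther apart in 6 of 23 (26.1%). In dgk1Δ against WT edgeR called 0 of the 296 lower, with 22 at an unadjusted p under 0.05, DESeq2 called 2 and limma-voom 0, and the median was -0.08.

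The members are among the genes counted above, and whether these elements bear on their changes was not tested. RPA190, RPA135, RPA49, RPA43 and RPA34 held both elements at most 19 bases apart and fell. RPA14 held both 57 bases apart and was not called, although 54.5% of the genes with 21 to 60 bases between them were lower. RRN3 with PAC alone was not called. RPA12 held neither and fell. Among the other lists both elements stood in 2 of 2 subunits shared with RNA polymerase III, 5 of 7 t-UTP genes and 6 of 10 RNA polymerase III genes. They stood in 0 of 7 RNA polymerase II genes, 0 of 9 in the TFIIIB, TFIIIC and MAF1 list and 0 of 4 in the upstream activating factor.

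**Figure D5:**
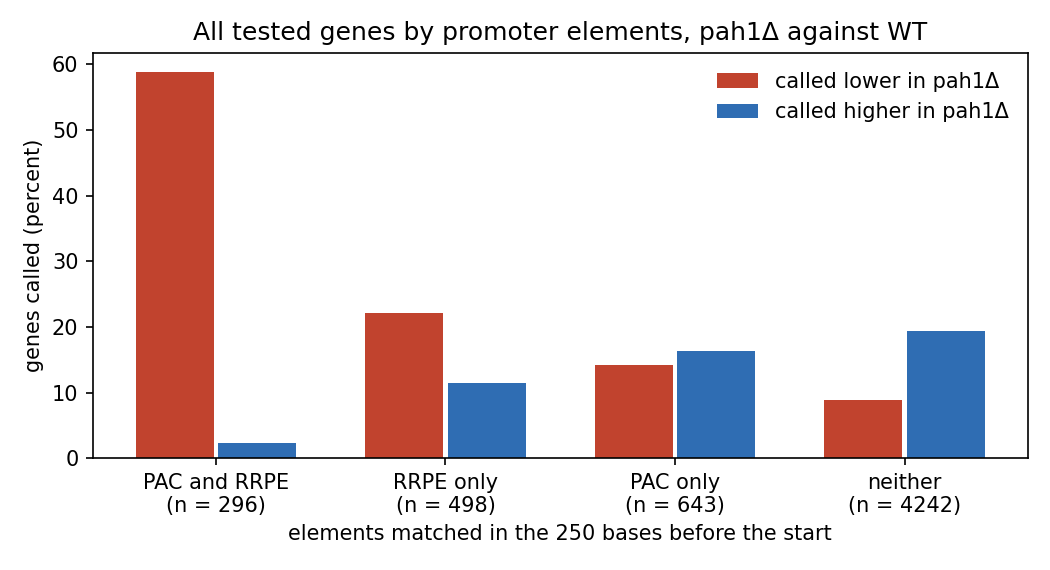
Percent of tested genes with a protein-coding promoter in the reference called lower or higher in pah1Δ against WT (vertical axis). Genes are grouped by the elements matched in the 250 bases before the start. Of the 296 genes with both elements 58.8% were lower, and of the 4242 with neither 8.91%.

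The genes whose profile over the 9 libraries lay closest to the members' mean profile were KRI1, TIF3, RPS4B, GCD10 and GCD7. Likeness was the root mean square difference of centred log2 CPM over 9 libraries, taken over 4666 candidate genes. It was 0.0239 for KRI1, a nucleolar ribosome biogenesis protein, 0.0293 for TIF3, the initiation factor eIF4B, and 0.0318 for RPS4B, whose near-identical copy RPS4A leaves its reads uncertain. GCD10, a subunit of a tRNA methyltransferase, had 0.0361 and GCD7, a subunit of eIF2B, had 0.0392. The members themselves lay between 0.0629 and 0.172 from their own mean. In pah1Δ against WT the 5 genes had log2 fold changes from -0.39 to -0.29. These falls follow from picking the genes by likeness over the same libraries and are no separate result.

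Markers of other cell states also differed between the genotypes. The summed level of 10 general stress and stationary phase genes was 249 to 336 CPM in WT, 1509.8 to 1870.4 in pah1Δ and 328 to 359 in dgk1Δ. The 7 genes specific to MATa cells summed to 2024 to 2083 CPM in WT, 1073 to 1258 in pah1Δ and 1806 to 2013 in dgk1Δ. The 4 MATalpha genes summed to 43.3 to 54.6 CPM in WT, 65.1 to 74.2 in pah1Δ and 51.4 to 57.0 in dgk1Δ, and the 6 meiosis genes to 51.9 to 53.7, 78.0 to 80.8 and 54.1 to 57.2. None of these markers was at 0 counts in any library. The part of these states in the lower polymerase messages of pah1Δ was not tested.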

How the data were processed

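Poly(A)-selected, random-primed RNA-seq libraries were used, 3 per genotype. The deposited table holds whole-number read counts per gene, not normalized per the file headers, and FPKM computed by the authors without TMM scaling. Per the submitters' processing notes, HISAT2 2.2.1, HTSeq 0.6.1 and build R64 were used. How strand and reads with several matches were handled is not given in the sources used here. Of the gene identifiers, 6045 matched the RefSeq annotation of R64.

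Counts were fitted in R 4.3.3 with edgeR 4.0.16: filterByExpr, TMM scaling and a quasi-likelihood fit of 1 mean for each genotype over all 9 libraries (residual degrees of freedom, 6; common BCV, the biological coefficient of variation, 0.106). A call is a Benjamini-Hochberg adjusted p under 0.05 over all 6150 genes tested, with no minimum fold, and intervals are 95%. The labels do not say that replicates were separate cultures, so the p-values reflect spread among these samples only, and that spread may be technical. Between replicates the chi-square per degree of freedom was 3.55 to 53.6, above sampling noise for every pair.

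The members, lists and tests were chosen with earlier results of these data known. Named were all members, the deleted genes, overlapping neighbours, the 5 nearest profiles, and per list up to 4 called genes by smallest adjusted p and up to 2 not called. The promoter repressors DOT6 and STB3 were named besides. Alternatives were RLE or library-size scaling, no filter or a minimum mean CPM of 10, a fit to the 2 groups compared alone, a block for replicate number, each library left out, DESeq2 1.42.0, limma 3.58.1 (voom, and log2 of FPKM plus 1 or 0.1), an adjusted p under 0.01 and removal of the length trend by loess. Leaving out WT replicate 1 and pah1Δ replicate 2 together was added after seeing the data.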

Additional observations from a re-analysis of the deposited data

How the results depend on the processing

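Each of the 24 member results (8 genes in 3 comparisons) was recomputed under 22 alternatives. Of these 528 values, 477 kept direction and side of the threshold, 11 kept direction but lost the call, 8 gained it, and 32 changed sign, all of them values that were not called. The members lower in pah1Δ than in WT numbered 4 to 6 and none was higher. There were 4 at an adjusted p under 0.01, 5 with library-size scaling and 5 with only the 2 groups compared, and 4 to 6 with a library left out. RPA190, RPA135, RPA49 and RPA43 kept their calls under all 22. In dgk1Δ against WT every count was 0, and in pah1Δ against dgk1Δ the lower members numbered 3 to 6. With the replicate number as a block the lower members were 5 in pah1Δ and 0 in dgk1Δ against WT, and 4 in pah1Δ against dgk1Δ, and RPA34 in pah1Δ against WT lost its call (adjusted p = 0.0536 by edgeR). The labels do not say that equal replicate numbers share a batch, so the numbers were not taken to pair the libraries. The correlation of same-numbered libraries' deviations ran from -0.667 to 0.551. It was 0.708 between WT replicate 1 and pah1Δ replicate 2, which both had a negative trend with gene length. Such trends enter these correlations, so they cannot decide whether the libraries are paired. Library-size scaling moved the median of all genes in pah1Δ against WT to 0.09 on the log2 scale.

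The log2 fold changes that changed sign lay close to 0 in the fit reported, and the cause was not tested. RRN3 in pah1Δ against WT was -0.0187 with RLE, -0.0190 with DESeq2 and -0.0532 with the length trend removed. It was -0.00631 with both WT replicate 1 and pah1Δ replicate 2 left out, and -0.0165 to 0.0288 with 1 library left out. RPA14 in pah1Δ against WT was 0.0439 with library-size scaling, 0.0555 on log2(FPKM + 1), 0.0560 on log2(FPKM + 0.1), 0.0557 with both libraries left out, and -0.18 to 0.11 with 1 left out. RPA190 in dgk1Δ against WT was -0.00824 with RLE, -0.00813 with DESeq2, -0.0813 with the length trend removed, -0.0942 with both libraries left out, and -0.0943 to 0.0675 with 1 left out. RPA14 in dgk1Δ against WT was 0.00405 on log2(FPKM + 1), 0.00415 on log2(FPKM + 0.1), 0.12 with both libraries left out, and -0.17 to 0.12 with 1 left out. RPA43 there was 0.0454 with both libraries left out and -0.10 to 0.0456 with 1 left out, and RPA135 was -0.14 to 0.0132 with 1 left out. RPA14 in pah1Δ against dgk1Δ was 0.0531 with library-size scaling, 0.00622 at a mean CPM of at least 10, 0.0515 and 0.0518 on the FPKM scales, and -0.0740 to 0.0356 with 1 left out.

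A member that was not called is not shown to be unchanged. FPKM levels carry no correction for the differing length dependence of the libraries.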

Other observations

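The table also held 14 rows for ribosomal RNA genes, of which 11 were at 0 in all 9 libraries. RDN37-1, the row of the precursor that RNA polymerase I makes, had at most 1 count in a library. RDN5-1, a 5S gene transcribed by RNA polymerase III, had 91 to 224 counts. Poly(A) selection removes most ribosomal RNA, so these rows do not measure its synthesis, and the output of the polymerase was not measured here.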
